A study of Homo sapiens with 4 samples.

Results

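The epidermal growth factor receptor (ERBB) family was examined in MDA-MB-231 breast cancer cells that had become resistant to cadmium. It was represented by 9 of the 61541 genes in the count table, namely the receptor genes EGFR, ERBB2 and ERBB3 and the ligand genes AREG, EREG, BTC, HBEGF, TGFA and NRG1. The genes were taken by symbol through their Ensembl identifiers, and no expression value entered the choice. All 9 had a mean normalized count above 100 and passed the filter on low counts. None of them differed detectably between cadmium-resistant and control cells. For 7 of the 9 the 2 control libraries lay further apart on the log2 scale than the estimated difference between the groups. The controls were apart in general, with a median absolute log2 difference of 0.39 over expressed genes. The median absolute log2 fold change between groups was 0.29 over all genes tested. These medians cover different sets of genes. A gap between single libraries also varies more than a difference between group means. The share of all genes with the wider control gap was not taken, so the count of 7 is no trait of the members. EGFR was the only member whose estimate was above 0 with the scaling of DESeq2, although HBEGF, TGFA and NRG1 also were with upper-quartile factors or limma-voom. It stood above most of the genes around it on chromosome 7, where estimates were mostly below 0.

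ERBB receptors are tyrosine kinases of the cell surface that pair with each other when a ligand binds, or, for ERBB2, which has no known ligand, when a partner receptor is bound. The ligands are made as membrane-anchored precursors and are released by cell surface proteases. Signals from the receptors run through the RAS-ERK and PI3K-AKT pathways, which switch on early response genes and also inhibitors of the same pathways. MDA-MB-231 is a triple-negative line, meaning that it lacks estrogen receptor, progesterone receptor and ERBB2 amplification, and it is known for high EGFR.

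The study compared parental cells, kept through serial passage in ordinary medium with no treatment, with cells of the same line kept long term in medium with cadmium sulfate at a final 10 µM. Each group had 2 RNA-seq libraries, called control 2, control 3, cadmium 1 and cadmium 2 after the numbers in their column names. Total counts per library ranged from 51934729 to 61916007. The controls were labelled biological replicates, while nothing said whether the cadmium libraries came from separately selected cultures, so p-values measure the spread between these libraries, which may be partly technical. Levels are given as counts divided by DESeq2 size factors (normalized counts), or, between genes, as RPKM, the count scaled to the summed exon length of the gene and to the total of the library. Differences are DESeq2 log2 fold changes, cadmium over control (log2FC), with their standard errors (SE) and p-values adjusted over all genes tested (padj). Where 4 values are listed, the order is control 2, control 3, cadmium 1, cadmium 2.

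The mesenchymal markers of the labelled line, VIM, CD44 and AXL, had normalized counts of 20725 to 96793 over the libraries. Of the 7 luminal and epithelial markers, the hormone receptor genes ESR1 and PGR had at most 18.9 and 29.6, while KRT8 had 48503 to 57920, KRT18 21666 to 25529 and GATA3 489 to 991. The basal keratin gene KRT5 and the T cell gene CD3E had no read. The controls were not alike. Over the 12924 expressed genes, defined by a mean of 100 or more normalized counts, the controls had a median absolute log2 difference of 0.39, and the cadmium pair 0.11. Some markers also differed between controls. Normalized counts in control 2 and control 3 were 2410.0 and 662 for EPCAM and 107 and 615 for CDH1, both luminal and epithelial markers. They were 160 and 842 for the endothelial PECAM1 and 1.89 and 144 for the blood gene PTPRC. The other endothelial marker CDH5 had 3.78 and 2.13, and the basal KRT14 had 3.78 and 0. The fibroblast markers had 501 and 930 for COL1A1 and 34.1 and 21.3 for COL1A2. The part of these differences in the results on the ERBB genes was not tested.

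Promoter sequences are shown for EGFR, whose level was followed against its chromosome, and for EREG, AREG and BTC, which lie beside each other on chromosome 4 but did not share one pattern over the libraries. Each runs over the 250 bases before the start site, 5′ to 3′ on the strand of the gene, from RefSeq on GRCh38.p14. Capitals mark a match on either strand to the core of the metal response element, spelled TGCACNC or TGCGCNC, which is the word that the metal-responsive factor MTF-1 is known to bind, or to the AP-1 word TGANTCA of FOS and JUN proteins. The windows are chr7:55018767-55019016, chr4:74364895-74365144, chr4:74444886-74445135 and chr4:74794524-74794773, with BTC on the minus strand and the others on the plus strand.
EGFR: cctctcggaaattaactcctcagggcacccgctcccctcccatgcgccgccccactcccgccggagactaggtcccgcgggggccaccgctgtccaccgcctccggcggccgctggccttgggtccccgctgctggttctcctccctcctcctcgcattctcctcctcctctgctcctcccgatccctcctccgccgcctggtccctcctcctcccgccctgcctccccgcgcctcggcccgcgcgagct
EREG: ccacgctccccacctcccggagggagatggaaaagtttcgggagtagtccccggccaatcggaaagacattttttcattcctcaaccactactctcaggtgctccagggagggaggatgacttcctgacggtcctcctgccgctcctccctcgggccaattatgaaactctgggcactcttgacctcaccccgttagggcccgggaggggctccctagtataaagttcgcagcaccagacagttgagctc
AREG: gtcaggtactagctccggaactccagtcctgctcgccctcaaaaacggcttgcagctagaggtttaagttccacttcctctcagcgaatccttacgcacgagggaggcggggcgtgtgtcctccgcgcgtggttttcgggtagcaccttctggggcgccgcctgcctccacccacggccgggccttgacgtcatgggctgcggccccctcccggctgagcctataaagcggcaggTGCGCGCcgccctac
BTC: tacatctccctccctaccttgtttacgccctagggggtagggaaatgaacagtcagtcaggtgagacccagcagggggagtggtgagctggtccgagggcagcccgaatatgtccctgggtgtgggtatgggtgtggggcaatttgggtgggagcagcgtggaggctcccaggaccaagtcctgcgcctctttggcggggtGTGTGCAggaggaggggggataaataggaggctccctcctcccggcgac

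AREG and BTC each held 1 metal response core word, starting 15 and 49 bases before the start site, and neither EREG nor this EGFR window held a match to any of the words. Of 35116 promoters of the same length 24.8% held a metal response core word and 6.57% an AP-1 word. A match to the metal response core is therefore common, and one to the AP-1 word less so. The share of promoters with more than 1 word was not counted. EGFR has a further RefSeq start inside the gene, and its window held 2 AP-1 words, which are shown with 10 bases on either side at chr7:55109597-55109623 and chr7:55109693-55109719 on the plus strand.
EGFR internal start, word 232 bases before it: ctttcccatgTGAGTCAttgctagtca
EGFR internal start, word 136 bases before it: tataaactttTGACTCAcaggacaaat

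Windows were found for 7 of the 9 members. The HBEGF window held no match, ERBB2 held 1 AP-1 word and TGFA 1 metal response core word. Counts were summed over all exons of a gene, so use of one start or another cannot be read from them. A match describes the letters only.

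**Figure D1:**
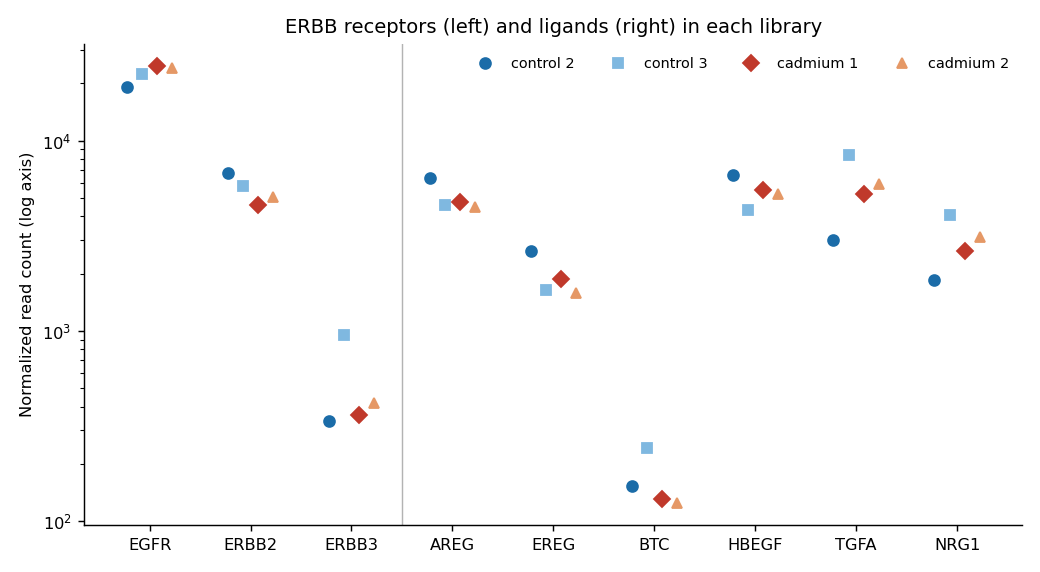
Normalized read counts on a log axis for the 3 receptor genes (left of the grey line) and the 6 ligand genes in each of the 4 libraries, 1 symbol per library with no error bar. The 2 cadmium libraries lie close together for each gene, while the control libraries differ most for TGFA (2985 and 8409.6), ERBB3 (335 and 948) and NRG1 (1857 and 4072).

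EGFR (ENSG00000146648, chromosome 7, 55019017 to 55211628, hg38, plus strand), the receptor of EGF, TGFA, AREG and several other ligands, had normalized counts of 19225, 22282, 24701 and 24166. Both cadmium libraries were above both controls, and the gap from the higher control to the lower cadmium library was smaller than the gap between the controls. The control mean was 20754 ± 2162 and the cadmium mean 24434 ± 378 (SD, n = 2 each). EGFR had a log2FC of 0.24 (SE 0.25, DESeq2 padj 1.00), which became 0.13 without control 2 and 0.33 without control 3. The 95% interval over all 4 libraries ran from 0.841-fold to 1.65-fold, so a doubling lay outside it.

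ERBB2 (chromosome 17, 39687914 to 39730426, plus strand), the preferred partner of the other receptors, had normalized counts of 6773 and 5803 in the controls and 4584 and 5065 in cadmium 1 and cadmium 2. Here both cadmium libraries were below both controls. Its log2FC was -0.38 (SE 0.26, 95% interval 0.541-fold to 1.09-fold), and its DESeq2 padj of 0.912 was the lowest among the members. Of the exon bases of ERBB2 6.93% also belonged to exons of MIEN1 or PGAP3 on the opposite strand, and since reads were counted without strand and dropped where genes overlap, reads that touched these bases were lost.

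ERBB3 (chromosome 12, 56076799 to 56103505, plus strand) encodes a receptor with little kinase activity of its own that binds neuregulins. Its normalized counts were 335, 948, 362 and 417. Both cadmium libraries fell inside the control range, close to control 2. ERBB3 had a log2FC of -0.72 (SE 0.50, DESeq2 padj 0.934), which became -1.29 without control 2 and 0.21 without control 3.

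AREG, which encodes amphiregulin, and EREG, which encodes epiregulin, are genes of low-affinity ligands of EGFR. AREG (chromosome 4, 74445136 to 74455005, plus strand) had normalized counts of 6373, 4559, 4783 and 4495. EREG (74365145 to 74388749, plus strand) had 2642, 1632, 1865 and 1588. Control 2 was the highest library for both, and the other 3 libraries lay together. AREG had a log2FC of -0.24 (SE 0.29) and EREG of -0.31 (SE 0.34), both with a DESeq2 padj of 1.00. Without control 2 these were 0.023 and 0.080.

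BTC (74744759 to 74794523, minus strand) encodes betacellulin, a ligand of EGFR and ERBB4, and lies in the same cluster, which with EPGN spans 0.486 Mb. It had normalized counts of 152 and 242 in the controls and 130.4 and 124 in the cadmium libraries. Both cadmium libraries were below both controls, and control 3 rather than control 2 was the highest. Its log2FC was -0.63 (SE 0.43, 95% interval 0.358-fold to 1.17-fold, DESeq2 padj 0.924), which became -0.93 without control 2 and -0.27 without control 3.

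HBEGF (chromosome 5, 140332843 to 140346603, minus strand), which encodes heparin-binding EGF-like growth factor, had normalized counts of 6599, 4331, 5487 and 5262. Both cadmium libraries fell between the controls. HBEGF had a log2FC of -0.02 (SE 0.31, DESeq2 padj 1.00), which became 0.31 without control 2 and -0.31 without control 3.

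TGFA (chromosome 2, 70447284 to 70554193, minus strand), which encodes transforming growth factor alpha, a high-affinity EGFR ligand, showed the widest control range among the ligands. Its normalized counts were 2985, 8409.6, 5233 and 5902. The controls differed 2.82-fold, a gap that 6.68% of expressed genes exceeded. The cadmium libraries lay between them and differed from each other by 0.17 on the log2 scale. TGFA had a log2FC of -0.03 (SE 0.47, DESeq2 padj 1.00). Without control 2 it was -0.60 (padj 2.03e-04) and without control 3 it was 0.89 (padj 1.53e-08), so DESeq2 called it in either case, in opposite directions.

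NRG1 (chromosome 8, 31639222 to 32855666, plus strand), which encodes neuregulin 1, a ligand of ERBB3 and ERBB4, followed the same order. Its normalized counts were 1857, 4072, 2641 and 3098. Both cadmium libraries lay between the controls. NRG1 had a log2FC of -0.05 (SE 0.41, DESeq2 padj 1.00). Like TGFA it turned with the control left out, to -0.51 without control 2 (padj 0.0134) and 0.62 without control 3 (padj 0.00142).

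**Figure D2:**
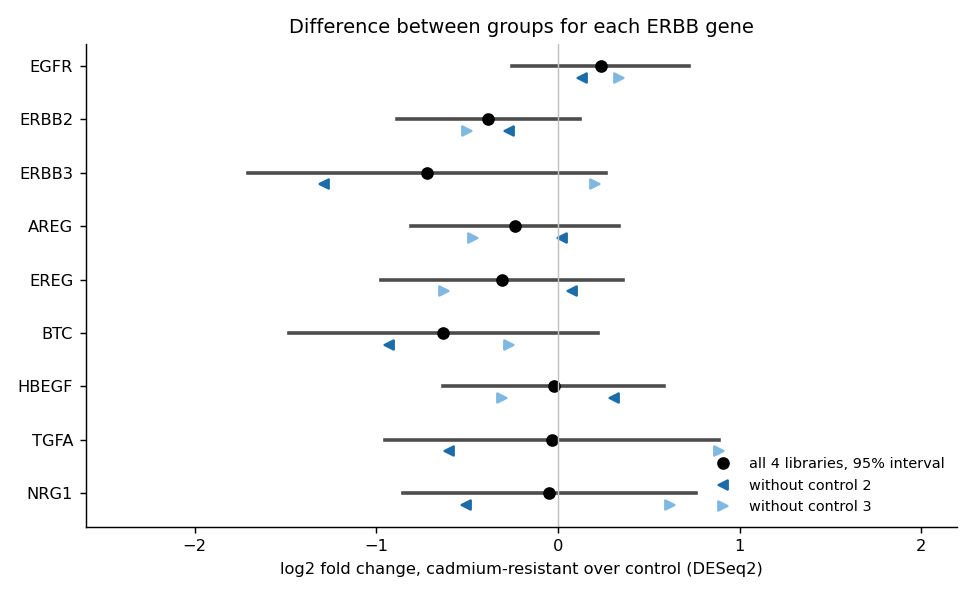
Difference between cadmium-resistant and control cells for each member as a DESeq2 log2 fold change, with black points and bars for the estimate and its 95% interval over all 4 libraries and triangles for the estimate without control 2 or without control 3. Each black bar covers 0, and for TGFA the triangles stand at -0.60 and 0.89 on either side of the estimate.

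DESeq2 called 0 of the 9 members at an adjusted p-value below 0.1, where it called 1.14% of all 19816 genes tested. None had an unadjusted p-value below 0.05 with DESeq2, edgeR or limma-voom, while 6.92% of all genes tested had one with DESeq2, 7.39% with edgeR and 7.4% with limma-voom. At an adjusted p-value below 0.1, edgeR and limma-voom called 0 members and 0% of all genes. DESeq2 also called 0 members under 6 alternatives in which it called 1.14% (TMM factors), 1.17% (upper-quartile factors), 0.499% (no filtering), 1.32% (at least 10 counts in 2 libraries), 0.763% (adjusted p-value below 0.05) and 1.04% (halved counts) of all genes. The groups did not overlap for 3 members, or 33.3%, against 40.3% of all genes tested, with EGFR higher (20.3% of all genes) and ERBB2 and BTC lower (19.9% of all genes). Estimates were below 0 for 8 of the 9, where 57.8% of all expressed genes had one below 0. The median was -0.24 against -0.02 for all genes tested. ERBB3 turned above 0 without control 3, and AREG and EREG did without control 2. The sign of HBEGF, TGFA and NRG1 changed with upper-quartile factors and with limma-voom, so no direction is given for them.

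The number of members called depended on which control was kept. Without control 2 DESeq2 called ERBB3, TGFA and NRG1, all lower, where it called 14.8% of all genes, 7.36% higher and 7.43% lower. Without control 3 it called 7 members, namely EGFR, TGFA and NRG1 higher and ERBB2, AREG, EREG and HBEGF lower, where it called 31.2% of all genes, 13.5% higher and 17.7% lower. In these fits the lone library of a group is assumed to vary like the pair of the other group. Without cadmium 1 or cadmium 2 no member was called by DESeq2, where it called 0.114% and 0.107% of all genes.

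Compared per length, AREG was the most abundant member in every library and ERBB3 the least. The mean RPKM in control and cadmium-resistant cells was 58.3 ± 11.3 and 51.1 ± 2.93 for AREG, 32.0 ± 8.09 and 32.5 ± 1.40 for HBEGF and 29.3 ± 4.26 and 35.3 ± 1.02 for EGFR (SD, n = 2 each). TGFA followed with 20.7 ± 14.6 and 20.4 ± 1.46, ERBB2 with 10.7 ± 0.720 and 8.44 ± 0.481 and EREG with 6.53 ± 1.92 and 5.46 ± 0.694. The lowest were NRG1 with 2.46 ± 1.39 and 2.42 ± 0.240, BTC with 1.32 ± 0.477 and 0.868 ± 0.0405 and ERBB3 with 0.977 ± 0.692 and 0.60 ± 0.0512. The order of HBEGF and EGFR, of HBEGF and TGFA and of ERBB2 and TGFA changed between libraries and is not resolved. The ranges of EGFR and TGFA, of NRG1 and BTC and of BTC and ERBB3 also overlapped over the 4 libraries. Within each library, however, EGFR was above TGFA, NRG1 above BTC and BTC above ERBB3. Summed exon length counts every annotated isoform and understates the level of genes with many of them, such as NRG1 with 21398 bases and EGFR with 12507, against 1642 for AREG.

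**Figure D3:**
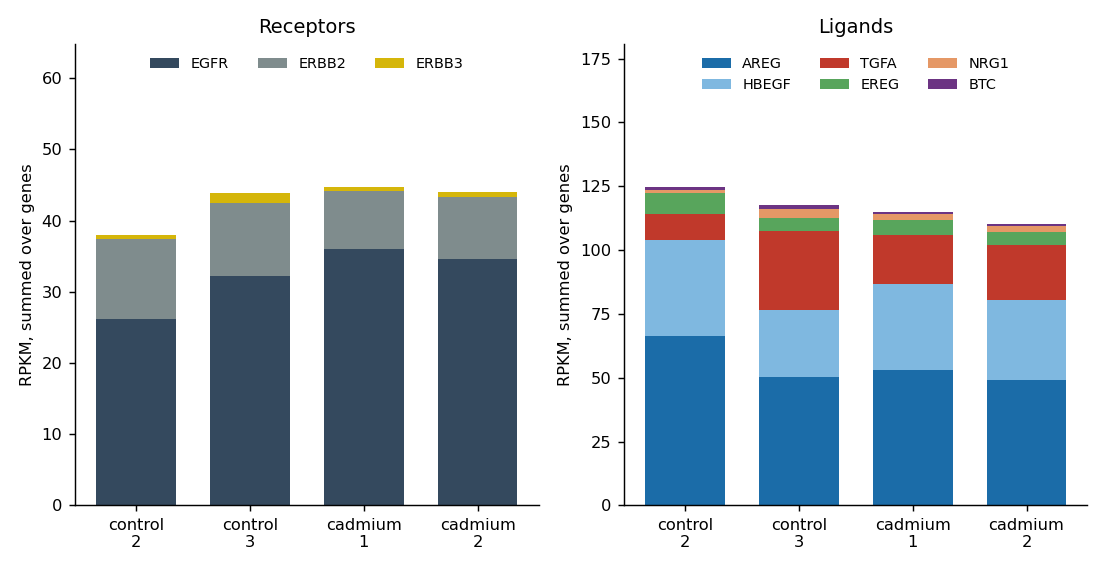
RPKM of the receptor genes (left) and the ligand genes (right) in each library, stacked so that the height of a bar is their sum, with 1 bar per library and no error bar. The ligand sums lie between 110.4 and 125 RPKM, while TGFA makes up 8.31% of the sum in control 2 and 26.3% in control 3.

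The summed RPKM of the 6 ligands was 125, 118, 115 and 110.4. The sum varied less than its parts. AREG took 53.2%, 42.7%, 46.2% and 44.4% of it. TGFA took 8.31%, 26.3%, 16.9% and 19.5%. The shares in the cadmium libraries lay between those of the controls for every ligand except BTC, which took 0.786%, 1.41%, 0.779% and 0.760%. Among the receptors EGFR took 69.2% and 73.5% of the summed RPKM in the controls and 80.6% and 78.6% in the cadmium libraries. The share of ERBB2 was 29.5%, 23.2%, 18.1% and 19.96%. In bulk RNA, fewer cells that express a gene and less RNA per cell cannot be told apart.

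The next question was whether EGFR followed its part of chromosome 7, since the estimates of expressed genes there were mostly below 0. Of the 639 expressed chromosome 7 genes other than EGFR 83.1% had a log2 fold change below 0, against 57.8% of all expressed genes, and their median was -0.29. The estimate of EGFR exceeded those of 601 of them, or 94.1%, while it exceeded those of 81.7% of all expressed genes. Among the 40 nearest expressed genes, 20 on each side over 44748581 to 65074713, the median was -0.20, 31 were below 0 and 37 were below EGFR. The neighbours from ZNF736 to CCT6P3 lay 9.22 to 9.94 Mb from EGFR, on the other arm. The short arm was taken to end before base 60000000.

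The 6 expressed genes next to EGFR, 3 on each side, all had estimates below 0, and none of them was called by DESeq2. SEC61G, a subunit gene of the protein translocation channel, had normalized counts of 2589.8, 2349, 1742 and 1860.1, without overlap of the groups (log2FC -0.46, DESeq2 padj 0.796). On the other side LANCL2, VOPP1 and the pseudogene PSPHP1 had a log2FC of -0.08, -0.35 and -0.34. GRB10, which encodes an adaptor that binds receptor tyrosine kinases, had -0.22. For COBL, an actin nucleator gene, the counts set control 2 apart, with a normalized count of 2943 against 8.51 in control 3 and 14.9 and 10.9 in the cadmium libraries. NACAD, also among the 40, had 286 in control 2, 56.4 in control 3 and 42.8 and 47.4 in the cadmium libraries. COBL and NACAD counted as expressed only through control 2, so their estimates below 0 followed in part from that filter. SUMF2, named after its values were seen, was the only one of the 40 that DESeq2 called, with normalized counts of 11060 and 9477 in the controls and 5578 and 5609 in the cadmium libraries and a padj of 0.0577.

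**Figure D4:**
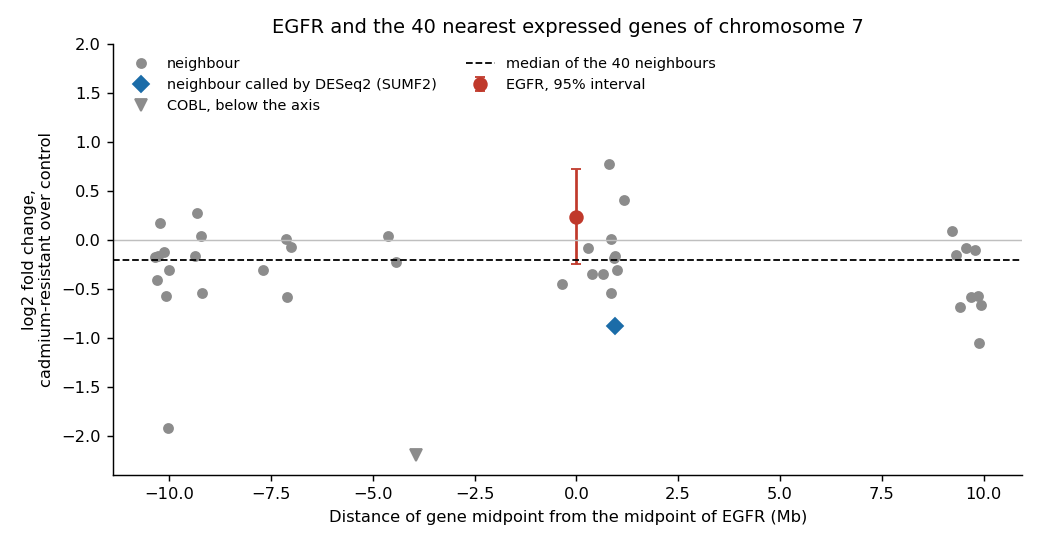
DESeq2 log2 fold change of EGFR (red, with its 95% interval) and of the 40 nearest expressed genes of chromosome 7 against the distance between gene midpoints in Mb, with a dashed line at the median of the neighbours, -0.20. EGFR lies at 0.24, above 37 of the neighbours, and COBL at -6.84 is drawn at the lower edge.

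Scaling the libraries on these 40 genes asks for the difference of EGFR relative to them. Divided by factors from these neighbours, the EGFR counts were 16976, 21614, 26527 and 26576. Both controls were below both cadmium libraries. On the log2 scale control 2 differed from control 3 by -0.35, and the cadmium libraries lay 0.30 above control 3. With the neighbours as the scale EGFR had a log2FC of 0.46 (SE 0.27, 95% interval -0.07 to 1.00), an unadjusted p of 0.0916 and a DESeq2 padj of 0.713, in a fit that called 1.37% of all genes. It was not called with 20 neighbours, 80 neighbours, neighbours of at least 10 or at least 500 normalized counts, all of chromosome 7 or its short arm as the scale, where DESeq2 called 1.25%, 1.54%, 1.2%, 1.83%, 1.94% and 2.07% of all genes. DESeq2 called EGFR with this scale without control 2 (0.30, padj 0.0875) and without control 3 (0.63, padj 7.86e-07), where it called 18.2% and 33% of all genes. It did not without cadmium 1 or cadmium 2, where it called 0.125% and 0.13%.

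The other members were set against their own 40 neighbours without a refit or a test. The log2FC of a member minus the median log2FC of its neighbours was 0.44 for EGFR, -0.35 for ERBB2, -0.83 for ERBB3, -0.11 for AREG, -0.21 for EREG, -0.48 for BTC, -0.08 for HBEGF, 0.27 for TGFA and 0.03 for NRG1. None of the 40 neighbours of ERBB3 had a lower log2 fold change than ERBB3. The gap between the controls did not follow the neighbours for TGFA, which was 1.49 higher in control 3 on the log2 scale while its neighbours had a median of -0.77, and all 40 had a lower value. NRG1 was 1.13 higher in control 3 with a neighbour median of -0.18. For ERBB3 the control gap was 1.50 and the neighbour median 0.55, in the same direction.

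The shape of each member over the 4 libraries was compared with that of every other expressed gene, by the distance of log2 values centred on the mean of the gene. The 3 genes nearest to EGFR were NCBP1, a cap-binding protein gene, ETV4, an ETS factor gene that ERK signalling is known to induce, and PTPRS, a receptor phosphatase gene, at distances of 0.00932, 0.0147 and 0.0208. ETV4 had normalized counts of 3898 and 4563 in the controls and 5079 and 4929 in the cadmium libraries. The nearest genes were IMPACT for ERBB2 (0.0204), RAB3D for ERBB3 (0.162), CASP8 for AREG (0.0354), HEXA for EREG (0.0447), EXTL3 for HBEGF (0.0190), ANO9 for TGFA (0.0898), IFIT3 for BTC (0.0587) and IL15 for NRG1 (0.0349). Among the members themselves AREG and EREG were the closest pair at 0.188, followed by AREG and HBEGF at 0.242 and TGFA and NRG1 at 0.275. With 4 libraries and 12923 genes to choose from, close matches are common, and these distances describe the libraries only.

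Genes up- and downstream of the receptors were followed in 8 lists with 65 genes, of which 61 were tested. DESeq2 called 0 of the 61, where it called 1.14% of all genes tested, and edgeR and limma-voom called 0. An unadjusted p-value below 0.05 was found for 3 of them, or 4.92%, with each of the 3 tools, below the 6.92% (DESeq2), 7.39% (edgeR) and 7.4% (limma-voom) of all genes tested. The median log2 fold change of the 61 was 0.07 against -0.02 for all genes tested. Of the 61, 37 were above 0, while 57.8% of all expressed genes were below 0. The groups did not overlap for 16 higher and 8 lower genes of the 61, or 26.2% and 13.1%, against 20.3% and 19.9% of all genes tested.

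The remaining ligand and receptor genes were low. EGF had normalized counts of 161 and 416 in the controls and 295 and 309 in the cadmium libraries, so that the cadmium libraries again lay between the controls. ERBB4 had 18, 4, 14 and 8 reads in control 2, control 3, cadmium 1 and cadmium 2, and EPGN, the epigen gene of the chromosome 4 cluster, had 0, 2, 7 and 6 reads. NRG3 had no read in any library, which allows up to 3 counts, or 0.0578 CPM in the shallowest library. Among the proteases and regulators that release ligands, 4 of 6 genes were above 0 and 2 below, with a median of 0.13. ADAM9 was the most abundant, with normalized counts of 16000 and 26479 in the controls and 21727 and 22617 in the cadmium libraries.

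Of the inhibitors that act on the receptors, 6 of 8 tested genes were above 0. ERRFI1, whose product MIG6 blocks the EGFR kinase and which is itself induced by EGFR signals, had normalized counts of 22865 and 28675 in the controls and 37455 and 39475 in the cadmium libraries. The groups did not overlap, and log2FC was 0.58 (SE 0.26, unadjusted p 0.0278, DESeq2 padj 0.572). Among inhibitors of ERK signalling, 6 of 8 were above 0 and the most abundant, DUSP4, had normalized counts of 23996 and 58675 in the controls and 44583 and 53840.0 in the cadmium libraries. DUSP6, the phosphatase gene for ERK, was named after its values were seen, with normalized counts of 11700.1 and 15351 in the controls and 21419 and 22258 in the cadmium libraries. Its log2FC was 0.69 (SE 0.27, unadjusted p 0.0111, DESeq2 padj 0.368). DUSP5 of the same list, also named after its values were seen, went the other way with a log2FC of -0.70 (SE 0.57). It had normalized counts of 22121 and 4960 in the controls and 8433 and 8227 in the cadmium libraries.

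In the early response list MYC had a log2FC of 5.8e-04, and EGR2 and EGR3 had mean normalized counts of 15.8 and 32.3. Over all expressed genes 57.8% had a log2FC below 0. Early response genes had a log2FC above 0 for 10 of 12, with MYC, EGR2 and EGR3 included, and a median of 0.20. CCND1, the cyclin D1 gene and the most abundant of them, had normalized counts of 53423 and 51980.1 in the controls and 65781 and 61862 in the cadmium libraries (log2FC 0.28, DESeq2 padj 1.00). IER3, an ERK-responsive survival gene named after its values were seen, had 15368 and 10478 in the controls and 20599 and 22493 in the cadmium libraries (log2FC 0.74, unadjusted p 0.0141, DESeq2 padj 0.420). No gene of the signalling chain was called. The adaptor list had 3 genes above and 3 below 0, the RAS-ERK list 2 above and 8 below, and the PI3K-AKT list 4 above and 4 below. Their most abundant genes, PTPN11, MAP2K2 and AKT2, had a log2FC of 0.23, -0.17 and -0.08.

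**Figure D5:**
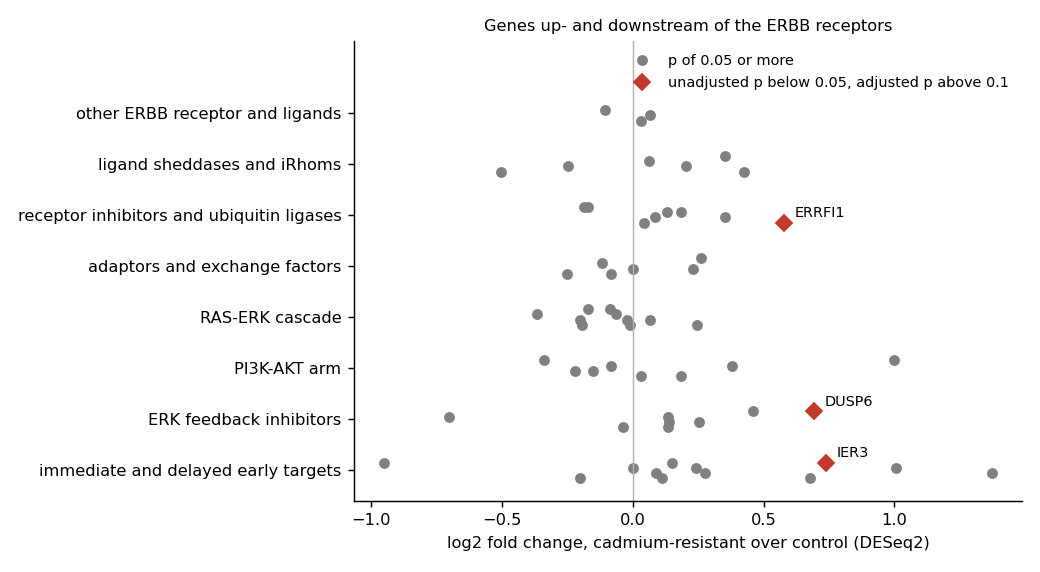
DESeq2 log2 fold change of each tested gene in the 8 lists, 1 point per gene, with red diamonds for the 3 genes with an unadjusted p-value below 0.05. ERRFI1, DUSP6 and IER3 lie at 0.58, 0.69 and 0.74, and their adjusted p-values are between 0.368 and 0.572.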

How the data were processed

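Total RNA of the MDA-MB-231 cultures was sequenced from both ends. The authors removed adaptors (bbduk), mapped reads on hg38 (hisat2) and counted them over Ensembl genes (featureCounts 2.0.1), as stated in the methods and the header. Deposited values are unnormalized counts. Default settings left strand unused, dropped reads that map or overlap ambiguously and counted each mate separately, so counts overstate fragments. The control columns are numbered 2 and 3, are lettered in the command line of the header and are numbered otherwise in the labels, so they entered as controls with no matched replicate. The cadmium columns matched labelled replicates. A table that pairs Ensembl identifiers with symbols matched 61369 genes.

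The members, gene lists and tests were chosen with earlier results of these data known. DESeq2 1.42.0 in R 4.3.3, the tool of the study, was run on all genes of the 4 libraries (design: group, two-sided Wald test, Benjamini-Hochberg adjustment after independent filtering, adjusted p-value below 0.1). Other settings were the quasi-likelihood test of edgeR 4.0.16, voom of limma 3.58.1, TMM or upper-quartile factors, no filtering, at least 10 counts in 2 libraries, a threshold of 0.05, halved counts and leaving out each library. Genes with a mean of 100 or more normalized counts were taken as expressed, and log2 values outside the fits used a pseudocount of 1. For neighbours, the size factors were replaced by the median of ratios over the 40 nearest expressed genes. Intervals are 1.96 standard errors on either side. Named genes were the members, the 3 expressed genes nearest EGFR on each side, called genes or else the most abundant gene of each list, and the genes most alike in pattern. Fits were tested on simulated data with the same spread for each gene in both groups, which differs from the libraries here. Plots used Python 3.11.15. Within a group libraries differed by more than counting noise, with a mean squared difference of 22.9 times the counting variance for the cadmium pair and 351 times for the controls. Protein sequences were not used here.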

Additional observations from a re-analysis of the deposited data

How the results depend on the processing

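No paired analysis was possible because only 1 replicate number occurs in both groups of columns, which left the block out. Outside the fits that leave out a library, 0 members were called under every alternative, and 80 of 86 values kept their direction and their side of the threshold. The other 6 were sign changes, where HBEGF, TGFA and NRG1 had log2 fold changes of 0.038, 0.022 and 0.0087 with upper-quartile factors and 0.0075, 0.16 and 0.070 with limma-voom. The settings without filtering and with the stricter threshold reused the fit behind the main estimates, so the directions under them could not change. That part of the 80 is built in and is no evidence of stability. With edgeR and limma-voom 0 genes of the whole table were called. The side of the threshold under these tools therefore says nothing about the members. A stricter threshold also cannot show whether more members would be called. EGFR relative to its neighbours ranged from 0.33 with neighbours of at least 10 normalized counts to 0.51 with the short arm of chromosome 7. Its DESeq2 adjusted p-values were between 0.450 and 0.981. Among these scales only the short arm gave a 95% interval above 0, from 0.0042 to 1.02 (unadjusted DESeq2 p 0.0481). Leaving out each library in turn gave 0 to 7 members called. The log2 fold changes then ranged from 0.13 to 0.33 for EGFR, -0.50 to -0.27 for ERBB2, -1.29 to 0.21 for ERBB3, -0.47 to 0.023 for AREG, -0.63 to 0.080 for EREG, -0.31 to 0.31 for HBEGF, -0.60 to 0.89 for TGFA, -0.93 to -0.27 for BTC and -0.51 to 0.62 for NRG1, and from 0.30 to 0.63 for EGFR relative to its neighbours. The extremes came from leaving out a control. With 2 libraries per group, standard errors of the members in the main fit were 0.25 to 0.50 on the log2 scale. The 95% interval of each member in that fit covered 0.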

Other observations

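Among the early response genes FOS and EGR1, named after their values were seen, spread more widely than any ERBB gene. FOS had normalized counts of 16489 and 1784 in the controls (control 2, then control 3) against 6583 and 2891 after cadmium (cadmium 1, then cadmium 2), and EGR1 had 6431, 1166, 4521 and 7633 in that order. Both are transient genes, and the groups overlapped for both, with a log2FC of -0.95 and 0.68 and a DESeq2 padj of 1.00 for each. FOS was high in control 2 together with AREG, EREG and HBEGF, and whether these move together was not tested.

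The sheddase genes ADAM10 and ADAM17, also named after their values were seen, encode the main proteases that release ERBB ligands. ADAM10 had normalized counts of 17262 and 11779 in the controls and 10292 and 10229.5 in the cadmium libraries (log2FC -0.50, SE 0.30, DESeq2 padj 0.842). ADAM17 had 2972 and 2090.4 in the controls and 2352 and 1916 in the cadmium libraries. Control 2 was the highest library for both.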
